A study of Mus musculus with 15 samples.

Results

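The clustered protocadherins are 58 genes of the Pcdha, Pcdhb and Pcdhg clusters on mouse chromosome 18, and their CpG methylation was followed here in the dentate gyrus of 15 mice. All CpG rows of the deposited table between positions 36920000 and 37860000 of GRCm38 were taken, which gave 717 of 455836 CpG rows. A row is a cytosine of a CpG on 1 strand, and its value is the percentage of reads that kept the cytosine, the methylation level. Of the 717 rows, 196 had a value in every mouse. The gene table lists 12 alternate Pcdha genes and 2 C-type Pcdha genes, 22 Pcdhb genes, 12 Pcdhga, 7 Pcdhgb and 3 C-type Pcdhg genes. Rows lay in the windows of 39 of the 58 genes.

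The assay was reduced representation bisulfite sequencing, which cuts DNA at CpG-rich recognition sites and converts unmethylated cytosines before sequencing. The mice were female C57BL/6JRj, 7.5 months old, with 5 mice in each of 3 housing groups. The standard group spent 6 months in standard cages, the enriched group 6 months in an enriched environment, and the withdrawal group 3 months in enrichment followed by 3 months in standard cages. The tissue was dissected dentate gyrus, a mix of cells, so that a shift in the share of cell types and a shift of methylation within cells cannot be told apart.

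Clustered protocadherins are cadherin-like adhesion proteins on the neuronal surface. Each Pcdha or Pcdhg transcript joins a variable exon, which has its own promoter and encodes the extracellular domain, to constant exons shared by the whole cluster, while each Pcdhb gene is a single exon without a constant part. A neuron switches on a few of the alternate promoters, and the set it displays is read by matching between cells in self-recognition and dendrite spacing. Methylation of the alternate promoters and exons is tied to their silencing, whereas the C-type genes are used by most neurons of a type, with Pcdhgc4 known for neuronal survival and Pcdhac2 for serotonergic wiring.

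The 3 clusters held many CpGs of intermediate methylation. Of the 717 rows, 47.8% had a mean between 20% and 80%, against 17.2% of all CpG rows of the table. Rows under 20% made up 30.5% here and 52.4% in the table, and rows over 80% made up 21.6% and 30.4%. Among complete rows of intermediate mean, the median SD over the 15 mice was 20.7 points in the 94 rows of the clusters and 17.6 points in the 22479 such rows of the whole table. These shares are descriptions of rows that lie side by side, and they were not tested. Where both strands of a CpG had rows, in 70 pairs with 834 mouse values, the strands differed by a median of 6.86 points and a mean of 15.4 points. Read depth is not known for any row, so this strand difference is the nearest view of the error of a single value.

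The alternate and Pcdhb genes were mostly of intermediate methylation, and the C-type genes were nearly unmethylated. In the window from 500 bases before to 2500 bases after each gene start (for Pcdhb, to the gene end), 482 rows of alternate and Pcdhb genes averaged 51.7%, and 320 of them (66.4%) were intermediate. The 83 rows of the 5 C-type genes averaged 3.02%, and 1 of them (1.20%) was intermediate. By gene, Pcdhac1 averaged 3.57%, Pcdhac2 2.88%, Pcdhgc3 2.14%, Pcdhgc4 1.94% and Pcdhgc5 8.05%. No alternate or Pcdhb gene with rows was below the 31.1% of Pcdhga11, and the highest was Pcdhga2 at 92.4%. Over complete rows within each mouse, alternate and Pcdhb genes (131 rows in 20 genes) averaged 53.1% and C-type genes (11 rows in 3 genes) 2.63%. The difference was 50.4 ± 4.15 points (SD, n = 15 mice) and positive in 15 of 15 mice. Of the C-type rows, 6 lie within 39 bases of the start of Pcdhac1. An exact two-sided sign-flip permutation test over the mice gave an adjusted p of 6.10e-05 over 4 such contrasts, the smallest p that 32768 sign patterns allow. The test covers the spread between mice only, and rows of the types lie at different distances from their gene starts.

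**Figure D1:**
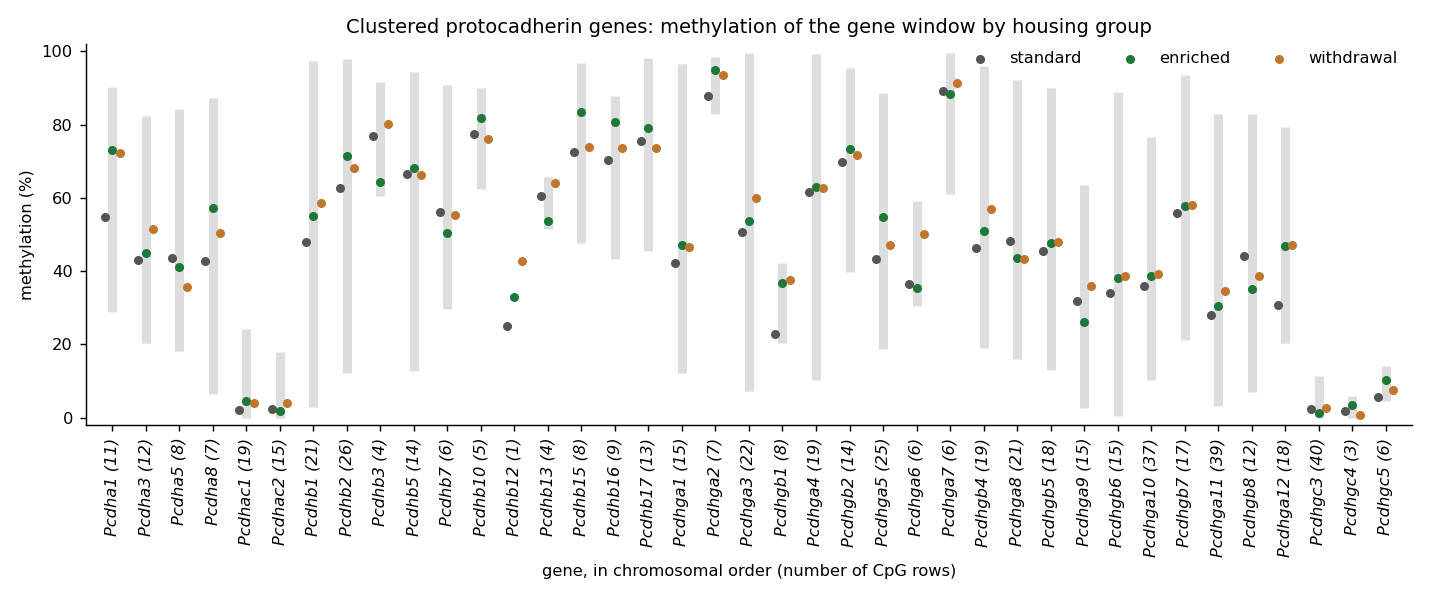
Mean methylation (%) of all CpG rows in the window of each of the 39 genes with rows, in chromosomal order, 1 point per housing group; grey bars run from the lowest to the highest row mean of the gene and the number of rows is in brackets. The 5 C-type genes lie under 11% in every group while alternate and Pcdhb genes lie between 22.8% (Pcdhgb1, standard) and 95.0% (Pcdhga2, enriched).

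Among the alternate genes the level depended on the family. Pcdhb rows averaged 66.5% over 111 rows in 11 genes, from Pcdhb12 at 35.2% (a gene with 1 row) to Pcdhb10 at 78.2%. Pcdhga rows averaged 45.7% over 230 rows in 12 genes, and Pcdhgb rows 49.4% over 103 rows in 7 genes, from Pcdhgb1 at 32.7% to Pcdhgb2 at 71.6%. Alternate Pcdha rows averaged 51.6% over 38 rows in 4 genes, which were Pcdha1, Pcdha3, Pcdha5 and Pcdha8. The other 8 alternate Pcdha genes (Pcdha2, Pcdha4, Pcdha6, Pcdha7 and Pcdha9 to Pcdha12) and 11 Pcdhb genes (Pcdhb4, Pcdhb6, Pcdhb8, Pcdhb9, Pcdhb11, Pcdhb14 and Pcdhb18 to Pcdhb22) had no row. On complete rows, Pcdhb exceeded the alternate Pcdhg genes by 19.8 ± 3.90 points (SD, n = 15, 68.3% against 48.5%), in 15 of 15 mice. Pcdhga minus Pcdhgb was −19.3 ± 4.84 points (SD, n = 15) in that view, at 44.4% against 63.7%, and negative in 15 of 15 mice, although the means over all rows, 45.7% and 49.4%, were close. The exact sign-flip permutation test gave an adjusted p of 6.10e-05 for both contrasts. It covers the spread between mice only, and the families' rows lie at different distances from their gene starts.

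Within an alternate gene, methylation was lower near the start than further in. The alternate Pcdhg genes, 19 with the transcribed pseudogene Pcdhgb8, had rows at different distances from gene to gene. Rows in the 500 bases before the start averaged 17.2%, from 14 rows of 3 genes with most of the rows in Pcdhga11. Those in the 500 bases after it averaged 26.5% (13 genes), from 500 to 1000 bases 50.8% (11 genes) and from 1000 to 1500 bases 65.3% (15 genes). Further in, the mean was 39.4% from 1500 to 2000 bases, in 30 rows of 7 genes, and 48.4% in the 6 rows beyond. Pcdhb genes had 44.8% before the start, 37.9% in the first 500 bases, and 80.7%, 76.6%, 76.0% and 75.1% in the next 4 steps of 500 bases. C-type genes stayed low, with 2.46%, 2.73%, 1.39%, 3.72% and 6.13% from the promoter inwards. Each of these steps rests on 2 genes, apart from the first 500 bases after the start (5 genes). From the first 500 bases to the next 1000, Pcdhac2 went from 1.07% to 4.46% and Pcdhgc3 from 1.22% to 2.25%. Of 16 alternate or Pcdhb genes with rows both in the first 500 bases and in the next 1000, 15 were higher inside, by a median of 41.5 points. Pcdhgb6 had the widest step, from 4.79% to 75.5%, and Pcdha3 was the exception, with 45.7% near the start and 28.8% inside, from 2 and 3 rows. In complete rows of the alternate Pcdhg genes the stretch from 1000 to 1500 bases exceeded the first 500 bases by 32.3 ± 7.48 points (SD, n = 15), in 15 of 15 mice. The distance steps were chosen after the values were seen, so no p is given for them.

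**Figure D2:**
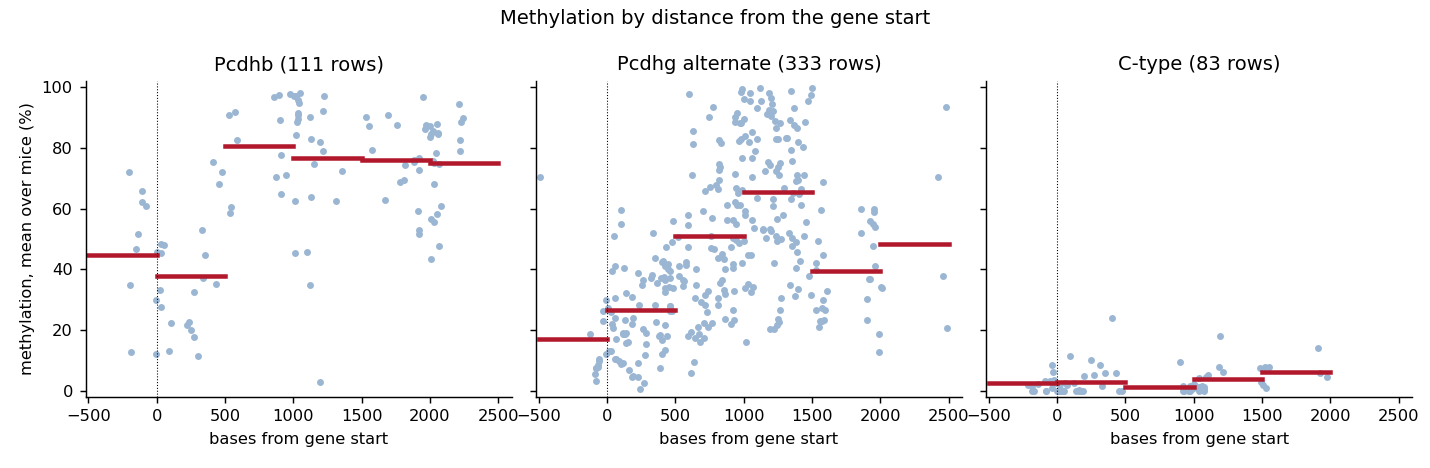
Mean methylation over mice (%) of each CpG row against its distance in bases from the gene start, for Pcdhb, alternate Pcdhg and C-type genes; points are rows and red lines are means of 500-base steps. The red lines go from 17.2% to 65.3% in alternate Pcdhg genes and stay at or under 6.13% in C-type genes. The genes with rows change from step to step, and the 17.2% rests on 14 rows of 3 genes.

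The constant parts and the gaps between genes held short unmethylated stretches. The constant part of Pcdha, taken from the end of the last variable window to the shared gene end, had 6 rows with a mean of 17.0% and a span from 1.01% to 44.0%. Its 3 rows at 37172356 to 37172398 averaged 1.84%. The constant part of Pcdhg had 5 rows at 37824533 to 37825069, which averaged 4.28%. Outside all gene windows, 10 rows at 37218164 to 37218390 averaged 0.548%, 9 rows at 37655533 to 37655668 averaged 3.84%, and 15 rows at 37842432 to 37842894, just past the shared Pcdhg end at 37841873, averaged 5.98%. The gene table names no protocadherin there. A further 31 rows at 37643935 to 37644210 averaged 1.16%, and 30 of them lie in the span of Taf7 (37640491 to 37644204), which encodes a subunit of the general transcription factor TFIID and sits between the Pcdhb and Pcdhg clusters. Other stretches outside the windows were high, such as 37553396 to 37553446 at 93.1% (3 rows). The annotation used gives gene spans without exons, so windows stand in for the variable exons. Whether the rows of either constant part lie in constant exons or in introns is not known.

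The housing groups were compared first on the mean over complete rows of each cluster, with 1 value per mouse. The complete Pcdhb rows lie in 5 genes, with 9 rows in Pcdhb1 and 13 in Pcdhb2. On them Pcdhb10 was highest in standard mice (76.5%, 69.5% and 56.0% in standard, enriched and withdrawal mice), and the other genes were lowest there. With all rows, Pcdhb3, Pcdhb5, Pcdhb7 and Pcdhb13 were lower in enriched than in standard mice. Pcdhb1, Pcdhb2, Pcdhb10, Pcdhb15, Pcdhb16 and Pcdhb17 were then higher. The Pcdhb mean (30 rows) was 58.1%, 66.2%, 69.3%, 64.7% and 58.0% in the standard mice 1 to 5. It was 71.1%, 68.0%, 70.1%, 71.2% and 75.1% in the enriched mice, and 72.7%, 69.6%, 73.5%, 66.7% and 70.4% in the withdrawal mice. In each of the latter groups 4 of 5 mice lay above every standard mouse, and the ranges overlapped. Group means were 63.2 ± 5.01% (SD, n = 5) for standard, 71.1 ± 2.60% for enriched and 70.6 ± 2.69% for withdrawal mice. The enriched minus standard difference was 7.84 points (SE 2.52; exact two-sided permutation p = 0.0159, adjusted p = 0.0635 over 12 tests). The withdrawal minus standard difference was 7.32 points (SE 2.54; exact permutation p = 0.0159, adjusted p = 0.0635). The smallest p that 5 against 5 mice can give is 0.00794. Withdrawal minus enriched was −0.520 points (SE 1.67; exact permutation p = 0.762). These p-values measure the spread between individual mice, and both comparisons against standard housing share the same 5 standard mice.

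The mean over the Pcdhg variable windows (103 rows) showed the same order. The standard mice had 43.0%, 42.6%, 43.0%, 48.1% and 34.2%, the enriched mice 50.3%, 48.2%, 45.1%, 50.8% and 47.9%, and the withdrawal mice 51.2%, 47.2%, 44.4%, 47.04% and 50.0%. Standard mouse 4 lay within the ranges of the other groups, and standard mouse 5 lay far below them. The means were 42.2 ± 4.999% (SD, n = 5), 48.5 ± 2.28% and 48.0 ± 2.68%. The enriched minus standard difference was 6.27 points (SE 2.46; exact permutation p = 0.0238, adjusted p = 0.0714), and the withdrawal minus standard difference was 5.77 points (SE 2.54; exact permutation p = 0.0317, adjusted p = 0.0762). Withdrawal minus enriched was −0.498 points (SE 1.57; exact permutation p = 0.730). The genes did not contribute alike. Of the 103 rows, 11 lie in Pcdhga12 (25.8% in standard and 45.4% in enriched mice) and 6 in Pcdhga5 (32.2% and 54.6%). These had the widest enriched minus standard differences. Pcdhgb4, Pcdhga7, Pcdhga8 and Pcdhgb5 were lower in enriched than in standard mice. Pcdhgb1, Pcdhga7 and Pcdhgb5 were lower in withdrawal than in standard mice.

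No cluster difference passed an adjusted p of 0.05, and several choices moved these values by more than 1.5 times. With all rows, each mouse's deviation from the row means replacing the plain mean, the Pcdhb differences from standard were 4.63 and 3.67 points and the Pcdhg variable differences 2.76 and 3.98 points, for enriched and withdrawal mice in that order, with adjusted p from 0.286 to 0.440 (exact permutation). With the median over rows in place of the mean, the Pcdhg variable differences were 10.4 and 10.8 points, with an adjusted p of 0.190 for both (exact permutation). Leaving out standard mouse 4 brought the Pcdhg variable differences to 7.75 and 7.25 points, and leaving out standard mouse 3 brought those of Pcdhb to 9.35 and 8.83 points, each with an exact permutation adjusted p of 0.0476. Leaving out standard mouse 4 gave the same adjusted p for the enriched Pcdhb difference, at 8.20 points. Without standard mouse 5 the Pcdhg variable differences were 4.28 and 3.78 points.

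**Figure D3:**
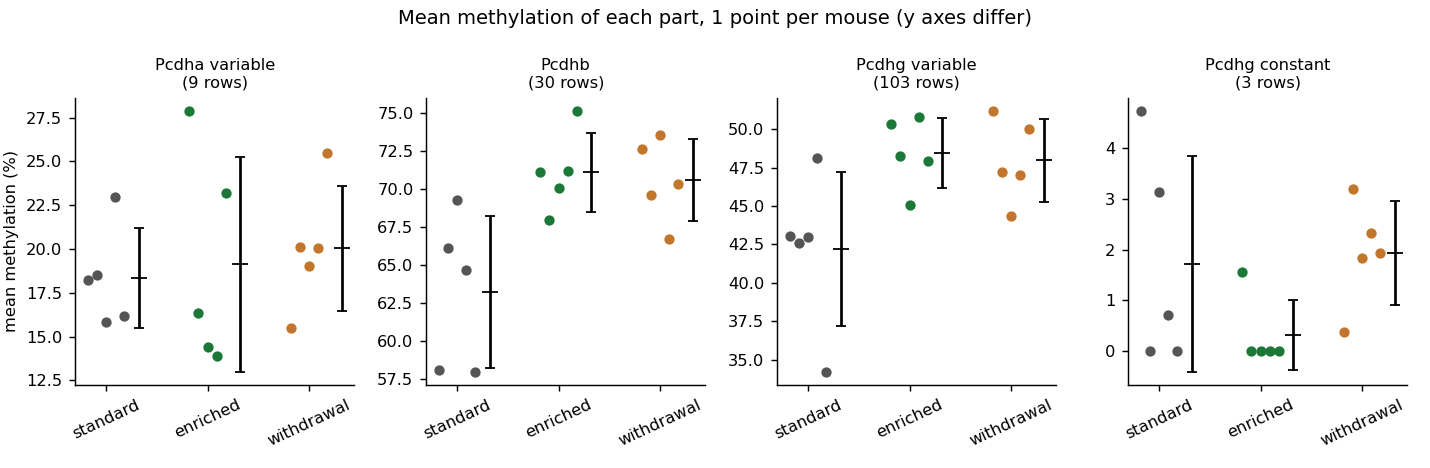
Mean methylation (%) over complete rows of Pcdha variable windows, Pcdhb genes, Pcdhg variable windows and the Pcdhg constant part, 1 point per mouse; bars show the group mean ± SD (n = 5) and the y axes differ between panels. In Pcdhb, 4 of 5 enriched and 4 of 5 withdrawal mice lie above the highest standard mouse at 69.3%, while the Pcdha groups overlap throughout.

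Intermediate rows elsewhere in the table had closer group means. The other 22385 complete rows of the table with a mean between 20% and 80% averaged 49.9 ± 1.497% (SD, n = 5) under standard housing, 50.2 ± 3.09% under enrichment and 51.5 ± 1.52% after withdrawal. Their differences from standard were 0.384 points (exact permutation p = 0.833) and 1.65 points (exact permutation p = 0.135). With each mouse's mean over those rows subtracted, Pcdhb was 7.46 points above standard in enriched and 5.68 points above it in withdrawal mice (exact permutation adjusted p = 0.333 and 0.429). The Pcdhg variable windows were then 5.88 and 4.12 points above standard (exact permutation adjusted p = 0.333 and 0.429). A difference of the clusters from the rest of the table is therefore not shown.

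Pcdha and the constant part of Pcdhg rest on few complete rows. The Pcdha variable mean rests on 9 complete rows, 3 of Pcdha5 and 6 of the C-type gene Pcdhac1, and was 18.3 ± 2.84% (SD, n = 5) for standard housing, 19.1 ± 6.14% for enrichment and 20.03 ± 3.58% for withdrawal. Its 3 differences were 0.791, 1.69 and 0.895 points for enriched minus standard, withdrawal minus standard and withdrawal minus enriched (SE 3.02, 2.05 and 3.18; exact permutation p = 0.794, 0.437 and 0.786). Enriched minus standard was 4.13 points with all rows (exact permutation adjusted p = 0.440) and 12.0 points with the median over rows (exact permutation p = 0.0476, adjusted p = 0.190), and withdrawal minus standard was 3.58 and 3.43 points. The Pcdhg constant mean (3 rows) was 4.74%, 0%, 3.15%, 0.709% and 0% in standard mice and 0.379%, 3.20%, 1.83%, 2.32% and 1.93% in withdrawal mice. It was 1.55% in enriched mouse 1 and 0% in the other 4 enriched mice. Withdrawal minus enriched was 1.62 points (SE 0.553; exact permutation p = 0.0159, adjusted p = 0.0635), and 3.77 points with all rows (exact permutation p = 0.365, adjusted p = 0.457). The Pcdha constant part had 1 complete row and was not tested.

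By family within Pcdhg, Pcdhga averaged 39.4 ± 4.54% (SD, n = 5), 47.5 ± 2.72% and 46.2 ± 2.68% in the standard, enriched and withdrawal groups. Pcdhgb averaged 62.4 ± 7.98%, 63.2 ± 4.48% and 65.5 ± 3.97% in the same order. Whether the 2 families differ in their response to housing was not tested. C-type genes averaged 1.36 ± 1.48% (SD, n = 5), 4.53 ± 3.56% and 2.01 ± 0.499%. The enriched C-type mean was carried by Pcdhac1, which had 16.7% in enriched mouse 1 and 10.9% in enriched mouse 5 and from 0.617% to 3.38% in the other 3. Those 2 mice had values in 582 and 571 of the 717 rows, among the fewest of the 15, and whether missing rows play a part was not tested. Standard mice had 0% to 3.85% at Pcdhac1 and withdrawal mice 0% to 4.08% (limma enriched minus standard, adjusted p = 0.826).

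Single CpG sites were tested with limma, a linear model with a spread shared across features, on log2((percent + 5)/(100 − percent + 5)) over all 100562 sites of the table with complete values and a range of at least 5 points. Of 185 sites in the clusters, 0 passed an adjusted p of 0.05 in any of the 3 comparisons, as for the whole table (0% called). At an unadjusted limma p under 0.05, 16 cluster sites passed for enriched minus standard, all higher in enriched mice, a share of 8.65% beside 5.15% of all sites. For withdrawal minus standard 11 passed, all higher in withdrawal mice (5.95% beside 4.42%). For withdrawal minus enriched 2 passed, both lower in withdrawal mice (1.08% beside 4.3%). Neighbouring sites share reads and are not independent. The groups did not overlap at 2 cluster sites for enriched minus standard (background 0.458%), at 1 for withdrawal minus standard (background 0.532%) and at 0 for withdrawal minus enriched (background 0.51%).

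The direction over sites was uneven for both comparisons against standard mice. Enriched mice had the higher mean at 119 and the lower at 62 of the 185 sites, with a median difference of 2.60 points, where 49.2% of all sites had the higher mean in enriched mice. Withdrawal mice were higher at 124 and lower at 60 sites, with a median of 3.27 points, where 51.9% of all sites were higher. Between withdrawal and enriched mice 91 were higher and 93 lower, where 51% of all sites were higher. The 1 kb windows gave 0 calls among 27 windows of the clusters in each comparison (0% of 15677 windows), and at an unadjusted limma p under 0.05 they gave 3, 2 and 0 (background 5.71%, 4.8% and 4.39%). The groups did not overlap in 0 of the 27 windows in any comparison (background 0.689%, 0.804% and 0.651%). Windows with the higher mean numbered 20 in enriched and 21 in withdrawal against standard mice, where 51% and 54.2% of all windows were higher, and 12 in withdrawal against enriched mice, where 52.8% were. Rows of intermediate mean made up 48.0% of the complete rows in the clusters and 19.7% in the table, so all sites and windows are an unlike background. Among gene starts of intermediate mean in the table, 61.1% were higher in enriched and 64.6% in withdrawal than in standard mice.

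Gene start windows were built by the same rule for every gene of the table. The value was the mean of at least 3 complete rows from 500 bases before to 2500 bases after the start. The rows lie at different distances from gene to gene, so levels of different genes are not like for like. Most complete rows of Pcdhga11 lie around its start, and those of Pcdhga7 and Pcdhgb7 lie far inside. Group differences within a gene rest on the same rows. Of 3415 genes so tested, 19 were clustered protocadherins, and 0 of these passed an adjusted limma p of 0.05 in any comparison (0% of all genes). At an unadjusted limma p under 0.05 there were 2 for enriched minus standard, Pcdhga12 and Pcdhga5 (background 5.45%), 1 for withdrawal minus standard, Pcdhb2 (background 5.04%), and 0 for withdrawal minus enriched (background 4.98%). Enriched mice were higher at 15 of 19 genes, with a median of 4.99 points, and withdrawal mice at 16 of 19, with a median of 5.12 points, where 50.7% and 52.6% of all genes were higher and the medians over all genes were 0.0226 and 0.103 points. Withdrawal was above enriched at 7 of 19 (background 51.9%), with a median of −0.782 points. Most genes of the table are unmethylated at the start, so the 285 gene starts of intermediate mean are a nearer measure. They had medians of 1.85 and 2.30 points against standard, with 61.1% and 64.6% higher, and their 15 protocadherins had medians of 5.43 and 5.26 points, with 12 and 13 higher. With all rows in place of complete rows, 37 protocadherin genes had a value, of which 27 were higher in enriched and 30 in withdrawal than in standard mice, with medians of 3.11 and 3.47 points and 0 called by limma.

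**Figure D4:**
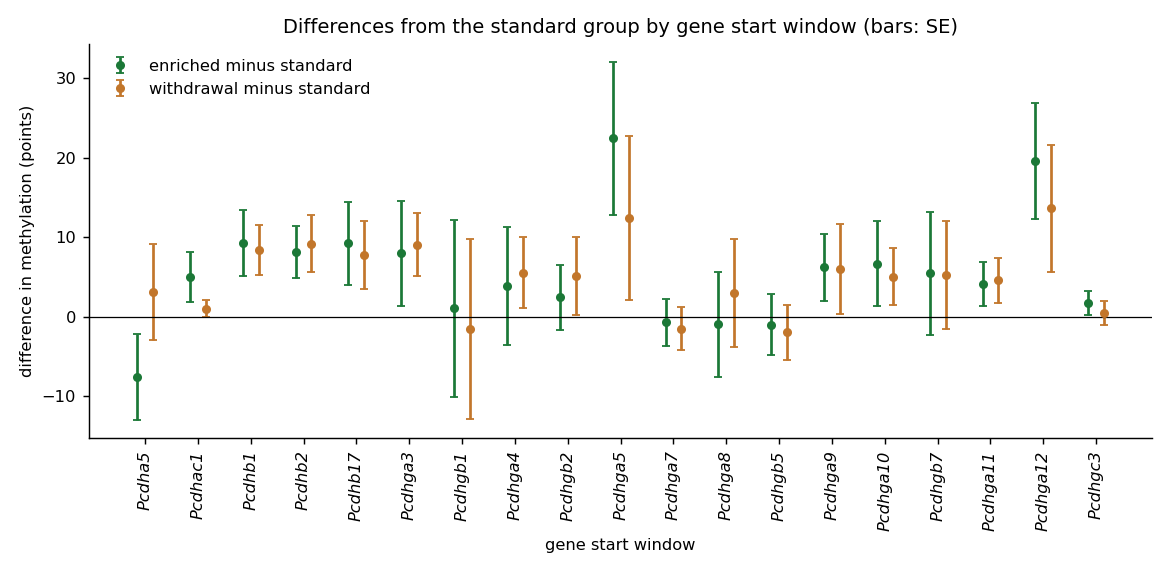
Difference in mean methylation (points) from the standard group at the gene start windows of the 19 testable clustered protocadherin genes, in chromosomal order; points are group differences and bars are SE (n = 5 and 5). Enriched differences are positive at 15 genes and withdrawal differences at 16, the widest on these complete rows being Pcdhga5 and Pcdhga12, and none passed the adjusted limma test.

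Pcdhga12 (37765580 to 37841873) encodes the last alternate Pcdhg isoform before the C-type genes and had the smallest limma p of the 19 gene starts for enriched minus standard. Its 11 complete rows averaged 31.6%, 21.0%, 9.24%, 45.8% and 21.2% in standard mice, 40.7%, 39.6%, 48.8%, 59.3% and 38.3% in enriched mice, and 32.8%, 43.1%, 25.05%, 40.02% and 56.0% in withdrawal mice. Standard mouse 4 overlapped the enriched range, and the other 4 standard mice lay below every enriched mouse. The means were 25.8 ± 13.7% (SD, n = 5), 45.4 ± 8.81% and 39.4 ± 11.6%. On the log2 ratio scale, enriched minus standard was 1.22 ± 0.43 (SE; limma adjusted p = 0.798). Leaving out each mouse in turn gave adjusted limma p from 0.504 to 0.869. With all rows in place of complete rows, enriched minus standard was 16.2 points (limma adjusted p = 0.882). Pcdha8 and Pcdha1 were then wider, at 18.8 and 18.2 points.

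A plus-strand site of Pcdhga12 at 37766830, 1250 bases after the gene start, had the smallest p of the cluster sites for withdrawal minus standard. It was at 0% in 4 standard mice and 13.3% in standard mouse 3. Enriched mice had 35.7%, 58.3%, 0%, 54.8% and 25%, and withdrawal mice 29.4%, 23.3%, 20%, 35.4% and 56.7%. Every withdrawal mouse lay above every standard mouse, and enriched mouse 3 was at 0%. The log2 difference was 3.01 ± 0.81 (SE; limma adjusted p = 0.823) for withdrawal and 2.80 ± 0.81 (limma adjusted p = 0.729) for enriched against standard mice.

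Pcdhga5 (37694375 to 37841870), an alternate Pcdhg isoform, had the largest SD over the 15 mice among the 19 gene starts, 15.8 points. Its 6 complete rows averaged 4.76%, 34.2%, 49.04%, 54.7% and 18.3% in standard mice, 48.7%, 51.6%, 53.2%, 58.4% and 61.3% in enriched mice, and 61.7%, 41.1%, 38.4%, 38.2% and 43.5% in withdrawal mice. Standard mouse 1 was the lowest and the enriched mice lay close together, and standard mice 3 and 4 lay inside the enriched range. The means were 32.2 ± 20.9% (SD, n = 5), 54.6 ± 5.13% and 44.6 ± 9.84%. Enriched minus standard was 1.43 ± 0.53 on the log2 ratio scale (SE; limma adjusted p = 0.798). With all rows in place of complete rows it was 13.0 points (limma adjusted p = 0.887).

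Pcdhb2 (37294840 to 37297614) and Pcdhb1 (37264998 to 37267454), both single-exon genes, open the Pcdhb cluster. Pcdhb2 had 60.02%, 72.3%, 74.5%, 61.0% and 61.6% in standard mice, 74.4%, 70.7%, 73.6%, 73.5% and 77.7% in enriched mice, and 77.1%, 71.3%, 79.7%, 70.8% and 76.4% in withdrawal mice. Standard mice 2 and 3 lay within the other groups, and the other 3 lay below both. Withdrawal minus standard was 0.56 ± 0.24 on the log2 ratio scale (SE; limma adjusted p = 0.895). The 1 kb window from 37294001, whose 3 complete rows lie 31, 92 and 106 bases after the start of Pcdhb2, had means of 11.9 ± 13.1% (SD, n = 5), 26.7 ± 13.2% and 24.1 ± 5.75% in the standard, enriched and withdrawal groups, with standard mouse 3 at 33.2% and the other 4 between 2.90% and 16.1%. At Pcdhb1 the standard mice had 46.2%, 54.0%, 57.3%, 56.4% and 43.2%, and the withdrawal mice 64.8%, 59.7%, 57.6%, 59.5% and 57.6%. It was the 1 gene start of the 19 at which those groups did not overlap (background 0.732%), by less than 1 point, and enriched mice spanned 48.8% to 65.6%. For enriched minus standard and withdrawal minus enriched, 0 of 19 did not overlap (background 0.556% and 0.937%).

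**Figure D5:**
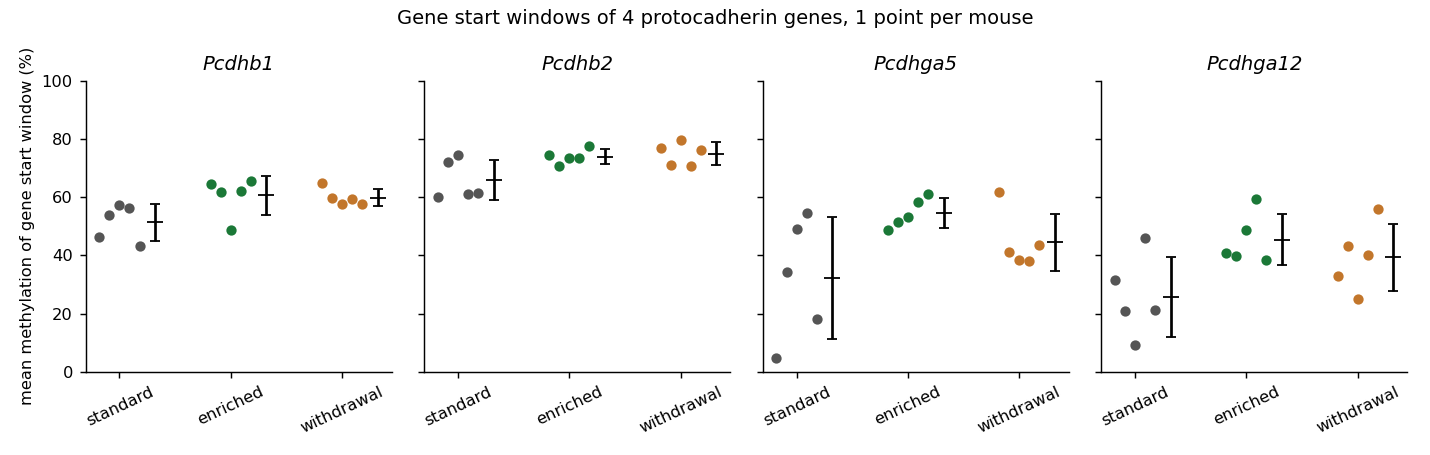
Mean methylation (%) of complete rows in the gene start windows of Pcdhb1, Pcdhb2, Pcdhga5 and Pcdhga12, 1 point per mouse; bars show the group mean ± SD (n = 5). Standard mice spread widely at Pcdhga5, from 4.76% to 54.7%, and the standard mean is the lowest of the 3 groups in all 4 panels.

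No gene start of the clusters was called between enriched and withdrawal mice, and whether these groups are alike was not tested. On complete rows Pcdha5 (36960276 to 37187663) had the smallest gene start p between them. It had 50.3%, 45.8%, 36.4%, 40.4% and 47.7% in enriched and 46.5%, 55.1%, 49.8%, 54.2% and 68.3% in withdrawal mice. The groups overlapped, and the log2 difference was 0.57 ± 0.30 (SE; limma adjusted p = 0.923). With all 8 rows of Pcdha5 the difference turned, to −5.20 points. With all rows, 18 of 37 genes were higher in withdrawal than in enriched mice, with a median of −0.0811 points. Single genes differed more, with 15.8 points at Pcdhb3, 13.8 at Pcdhb13, 12.5 at Pcdhga6 and −8.53 at Pcdhb16. Pcdhga9 ranked first by limma in that view, at 9.58 points (limma adjusted p = 0.957). A minus-strand site at 37755707, 66 bases before the start of Pcdhga11, had 17.02%, 31.8%, 18.1%, 5.62% and 11.1% in enriched mice, 9.43%, 0%, 0%, 12.7% and 3.77% in withdrawal mice, and 0%, 5.33%, 4.26%, 0% and 0% in standard mice. All enriched mice lay above all standard mice there. The log2 difference was 1.84 ± 0.52 (SE; limma adjusted p = 0.709) for enriched minus standard and −1.35 ± 0.52 (SE; limma adjusted p = 0.976) for withdrawal minus enriched.

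The ends of the range were alike in the 3 groups. Pcdhga7, the highest gene start, averaged 96.0 ± 5.19% (SD, n = 5), 95.2 ± 4.12% and 94.4 ± 3.04% in standard, enriched and withdrawal mice. Pcdhgc3, the lowest, averaged 1.68 ± 2.30%, 3.33 ± 2.48% and 2.09 ± 2.40%. Both sets of groups overlapped throughout.

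Single mice weighed on these means. Standard mouse 5 had the lowest value of all 15 mice at 7 of the 19 gene starts and lay below the median at 18 of them, and standard mouse 1 was lowest at 4 and below the median at 14. Enriched mouse 1 was below the median at 1. The rows of the clusters with a value numbered 478 to 657 in standard mice (median 648), 571 to 669 in enriched mice (median 582) and 619 to 697 in withdrawal mice (median 650). Standard mouse 1 had the fewest, both here and in the whole table, where mice had values in 297844 to 444106 CpG rows.

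The spread between mice of a group was measured as the mean absolute difference of a mouse from the other 4 over the 196 complete rows. The group means were 13.1 ± 1.20 points (SD, n = 5) for standard, 12.4 ± 0.603 for enriched and 10.8 ± 1.25 for withdrawal mice. Withdrawal minus standard was −2.25 points (exact permutation p = 0.0476, adjusted p = 0.143 over 3 tests), enriched minus standard −0.659 points (exact permutation p = 0.524, adjusted p = 0.524) and withdrawal minus enriched −1.59 points (exact permutation p = 0.127, adjusted p = 0.190). Without standard mouse 2 the withdrawal minus standard difference was −3.17 points (exact permutation adjusted p = 0.0476), and without withdrawal mouse 4 it was −1.43 points (adjusted p = 0.524, exact permutation). Withdrawal mice also had values in more rows than the enriched mice, and the part of row coverage in this spread was not tested.

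Few genes around the protocadherins in their pathway could be tested. Among 15 regulators of protocadherin choice and methylation, 3 had enough rows, the cohesin subunit Smc3, the cohesin release factor Wapl and the histone methyltransferase Setdb1. All were nearly unmethylated, with group means from 0.0482% to 2.16%, and 0 were called by limma. At an unadjusted limma p under 0.05, Smc3 passed for withdrawal minus standard, at 1.01% against 0.0482%, where 5.04% of all 3415 gene starts passed. The median differences of the 3 were 0.0947, 0.963 and 0.824 points for enriched minus standard, withdrawal minus standard and withdrawal minus enriched. Of 10 intracellular partners, 1 was tested, the WAVE complex subunit Cyfip2 (1.56%, 0.818% and 1.85% in standard, enriched and withdrawal mice), and was not called. Of 12 non-clustered protocadherins, which are single genes elsewhere in the genome, 5 were tested (Pcdh7, Pcdh9, Pcdh10, Pcdh17 and Pcdh18). Their group means were 0.684% to 3.04%, 0 were called and 0 passed an unadjusted limma p of 0.05, with medians of −0.214, −0.328 and −0.264 points.

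Cell type markers gave little to check the tissue by. Of 3 granule cell markers, Prox1, which defines dentate granule neurons, was tested, and its start averaged 4.36%, 1.03% and 1.48% in the standard, enriched and withdrawal groups (smallest limma p 0.00422, not called after adjustment). Its unadjusted limma p was under 0.05 for both comparisons against standard, where 5.45% and 5.04% of all gene starts passed. Of 3 astrocyte markers, Aldh1l1 was tested, at 39.4%, 30.7% and 30.2% (smallest limma p 0.111). None of the 4 neuron, 4 oligodendrocyte, 3 microglia and 2 choroid or vessel markers had enough rows. The means of Prox1 and Aldh1l1 were highest in standard mice, where those of the Pcdhb and Pcdhg variable windows were lowest, and the part of cell composition in these differences was not tested.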

How the data were processed

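Per the submitters' processing notes, the tools were Trim Galore 0.4.0, cutadapt 1.8.1, Bismark 0.16.1 and methylKit 1.5.2, with mm10. Their settings and any coverage minimum are not given in the sources used here. The authors deposited the percent methylation of each cytosine in each mouse, without read counts, so read depth is unknown and no interval or floor is given. Mice were grouped by their labels, 5 in each of 3 groups.

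Rows before the chromosome column restarts were used as CpG rows. Gene spans came from the RefSeq table of GRCm38.p6, without exons. Its strands were read through the promoter table, which left out 4348 genes without one. Pcdha and Pcdhg genes were taken as plus-strand from their shared ends. Pcdhb genes share no end and were assumed to be plus-strand because they lie between those clusters. Windows ran from 500 bases before to 2500 after a start. A row in more than 1 window went to the gene with the nearest start.

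Cluster means over rows complete in all 15 mice were compared by exact permutation of 252 arrangements, with Benjamini-Hochberg adjustment over 12 tests. Sites, 1 kb windows and gene starts were fitted with limma 3.58.1 (R 4.3.3, trend, offset 5 points) over the whole table, tested on simulated data. Genes with values in every mouse were those with the smallest limma p in a comparison, the highest or lowest mean, or the largest SD; Pcdhb1 and Pcdhac1 were added after their values were seen. The members and gene lists were chosen with earlier results of these data known. Alternatives changed the offset, scale, filters, rows, strands, mean and mice.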

Additional observations from a re-analysis of the deposited data

Results flagged for a closer look

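In 48 groups of 5 mice checked for a mouse far from the other 4, 4 were found, where chance gives about 1 in 20 groups. All but the Pcdhga5 flag are groups with 4 mice at 0%, where any other value is flagged, so that rate is no measure for them. The Pcdhg constant mean was 1.55% in enriched mouse 1 and 0% in the other 4 enriched mice. The 1 kb window from 37825001 holds the same 3 rows and gave the same value, 1.55%. The Pcdhga12 site at 37766830 was at 13.3% in standard mouse 3 and at 0% in the other 4 standard mice. The Pcdhga5 gene start was at 61.7% in withdrawal mouse 1, with a gap to the next mouse of 0.777 of the range of the group.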

How the results depend on the processing

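Of the cluster means against standard housing, Pcdhb and Pcdhg variable stayed higher in enriched and withdrawal mice under every alternative run, and their adjusted p passed 0.05 only without standard mouse 3 (both Pcdhb differences) or 4 (both Pcdhg variable differences and the enriched Pcdhb difference). Leaving out each mouse in turn gave 6.53 to 9.35 and 6.02 to 8.83 points for Pcdhb (enriched, withdrawal) and 4.28 to 7.75 and 3.78 to 7.25 points for Pcdhg variable. Small differences changed sign. Leaving out mice gave −1.39 to 2.11 points for Pcdha variable enriched minus standard, −0.216 to 0.969 for Pcdhg constant withdrawal minus standard, and for withdrawal minus enriched −0.470 to 3.08 (Pcdha variable), −1.30 to 0.490 (Pcdhb) and −1.35 to 0.398 (Pcdhg variable). The spread between mice ran from −1.58 to 0.199 points for enriched minus standard and from −3.17 to −1.43 for withdrawal minus standard. With all rows, Pcdha variable withdrawal minus enriched was −0.555, Pcdhg variable 1.21, Pcdhg constant enriched minus standard 2.16, and Pcdha5 withdrawal minus enriched −5.20 points. With the median over rows, Pcdha variable withdrawal minus enriched was −8.55, Pcdhg variable 0.426 and Pcdhg constant withdrawal minus standard −0.421 points. Of the alternatives chosen after seeing the data, dropping the C-type genes left Pcdha5 alone and gave −7.60 points for Pcdha variable enriched minus standard, and subtracting the other intermediate rows gave −0.369 for Pcdha variable withdrawal minus enriched and −1.43 for Pcdhg constant withdrawal minus standard. The all-row gene starts were chosen then too. Apart from the dropped genes, the cause was not tested. No site, 1 kb window or gene start of the clusters was called by limma under any alternative. On the percent scale 5 gene starts, against 2, had p under 0.05 for enriched minus standard, where 179 of all 3415 did. Deviations of mice with the same label number correlated at −0.0179 to 0.0192, and those of mice with different numbers at −0.0239 to 0.0275. Error of single values lowers such correlations, so they cannot decide whether the numbers pair the mice. With the number as a replicate block, the Pcdhb differences of 7.84 and 7.32 points had an exact permutation p of 0.0625, the smallest possible, and an adjusted p of 0.25; those of Pcdhg variable, 6.27 and 5.77 points, had p of 0.0625 and 0.125 (exact permutation), Pcdhg constant withdrawal minus enriched, 1.62 points, had p of 0.125 (exact permutation), and the block changed no call. Unknown read depth limits single sites most.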
